A study of Mus musculus with 8 samples.

Results

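The CXC chemokines measured here are 10 genes of the mouse lung count table, Cxcl1, Cxcl2, Cxcl3, Cxcl5, Cxcl9, Cxcl10, Cxcl12, Cxcl13, Cxcl14 and Cxcl15. They were found by the Entrez identifiers of these symbols, all 10 were in the table, and the table holds 23469 genes in all. The study compared wild type (WT) mice with DDAH1-transgenic (TG) mice, each treated with PBS or with house dust mite extract (HDM). DDAH1 is an enzyme that degrades asymmetric dimethylarginine, an inhibitor of nitric oxide synthases. The question was how the transgene and the allergen, alone and together, alter gene expression in the lung. All mice were on the C57BL/6 background. HDM-treated mice received 100 µg of extract in 50 µl of PBS into the trachea 3 times per week for 3 weeks, PBS-treated mice received PBS alone on the same schedule, and lungs were taken 24 hours after the last challenge. The promoter that drives the transgene and the age of the mice are not given in the sources used here. The 2 libraries of each of the 4 groups were made from one RNA pool of 4 mice. Every SD and p-value below therefore reflects technical spread within a pool, and differences among individual mice were not measured.

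CXC chemokines are small secreted proteins in which the first pair of cysteines is separated by a single residue, and they draw leukocytes along a gradient through G protein-coupled receptors. Those with the residues glutamate, leucine and arginine just before the first cysteine recruit neutrophils, in most cases through the receptor CXCR2. Cxcl9 and Cxcl10 lack these residues, are induced by interferon-gamma and attract T cells through CXCR3. Cxcl12 and Cxcl13 direct the homing of progenitor cells and B cells through CXCR4 and CXCR5, and Cxcl14 is made by many epithelia. Cxcl15, also called lungkine, is made mainly by the lung epithelium.

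The coding sequence around the paired cysteines shows this division, and 7 of the members are printed to show it. Each stretch holds 30 bases, 5′ to 3′, of the GENCODE M21 transcript of the gene. Capitals mark the codons of the first 2 cysteines and, where all were found, the codons for glutamate, leucine and arginine before them.
Cxcl1: gccaatGAGCTGCGCTGTcagTGCctgcag
Cxcl2: gccagtGAACTGCGCTGTcaaTGCctgaag
Cxcl3: gccagtGAGCTGCGCTGTcagTGCctgaac
Cxcl5: gcaacgGAGCTGCGTTGTgttTGCttaacc
Cxcl15: actcaaGAGCTACGATGTctgTGTattcag
Cxcl9: ataaggaatgcacgaTGCtccTGCatcagc
Cxcl10: gcaaggacggtccgcTGCaacTGCatccat

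The codons for glutamate, leucine and arginine were found in the 5 genes above with the neutrophil-recruiting role and in none of the other 5 members. The coding sequences of Cxcl2 and Cxcl3 were identical at 269 of 300 aligned positions (89.7%), the highest identity between any pair of members. Cxcl1 was identical to Cxcl2 at 75.7% and to Cxcl3 at 72.7% of aligned positions, while Cxcl5 and Cxcl15 were identical at 46.4%. Cxcl2 and Cxcl3 shared identical runs of 50 bases, which made up 5.75% of all such runs in the Cxcl2 transcript and 6.31% in that of Cxcl3. Reads that fell wholly in those runs could have been assigned to either gene. For the other 8 members the share of such runs found in another gene was between 0 and 0.852%. These shares are over whole transcripts. The counts were taken over coding regions, where the shares were not measured and may differ.

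On the GRCm38 build, 8 of the 10 members lie on chromosome 5. The 5 genes with the neutrophil-recruiting role form a cluster in the order Cxcl5 (chr5:90759298-90761625), Cxcl3 (chr5:90786101-90788093), Cxcl15 (chr5:90794534-90803067), Cxcl1 (chr5:90891245-90893121) and Cxcl2 (chr5:90903899-90905938). Gaps between neighbours in this cluster ran from 6.44 kb, between Cxcl3 and Cxcl15, to 88.2 kb, between Cxcl15 and Cxcl1. Cxcl9 (chr5:92321331-92328079) and Cxcl10 (chr5:92346638-92348889) lie 18.6 kb apart, 1415 kb beyond Cxcl2. Cxcl13 (chr5:95956939-95961068) follows at a distance of 3608 kb. Cxcl12 (chr6:117168535-117181368) and Cxcl14 (chr13:56288643-56296811) lie on other chromosomes.

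The promoters of 5 members are printed in part, to show the letters shared by the neighbours Cxcl1, Cxcl2 and Cxcl3 and those found in the interferon-induced members. The windows come from the RefSeq promoters of GRCm38.p6, which run from 250 bases before to 50 after the start site and were found for 9 of the 10 members. They are Cxcl1 (chr5:90891135-90891224, plus strand), Cxcl2 (chr5:90903789-90903878, plus strand), Cxcl3 (chr5:90785991-90786080, plus strand), Cxcl9 (chr5:92328210-92328269, minus strand) and Cxcl10 (chr5:92349060-92349119, minus strand), each upstream of the first exon. Capitals mark matches to GGGANTTTC, a part of the sequence bound by NF-kB, or to GAAANNGAA, a part of the interferon-stimulated response element, searched on both strands.
Cxcl1: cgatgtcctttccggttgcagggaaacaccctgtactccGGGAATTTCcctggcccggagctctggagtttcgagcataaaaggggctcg
Cxcl2: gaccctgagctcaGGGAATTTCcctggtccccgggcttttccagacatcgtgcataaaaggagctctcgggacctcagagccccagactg
Cxcl3: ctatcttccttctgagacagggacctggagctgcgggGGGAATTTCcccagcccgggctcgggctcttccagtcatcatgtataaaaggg
Cxcl9: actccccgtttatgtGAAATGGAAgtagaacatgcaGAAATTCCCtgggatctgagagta
Cxcl10: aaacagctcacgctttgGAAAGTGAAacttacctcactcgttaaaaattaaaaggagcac

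The NF-kB-like letters occurred in 1.11% of 32851 RefSeq promoters of this length and in those of Cxcl1, Cxcl2, Cxcl3 and Cxcl9 among the members. They began 71 bases before the start site in Cxcl1, 97 in Cxcl2 and 73 in Cxcl3, and 154 in Cxcl9, where they were on the opposite strand. The letters of the response element occurred in 8.56% of these promoters. They were found 175 bases before the start site of Cxcl9, 213 before that of Cxcl10 and 172 before that of Cxcl14. The promoter window of Cxcl14 (chr13:56296502-56296801, minus strand) lies within the span given above for this gene. Its match is thus upstream of the start site used but not of the gene span. These matches describe the letters and are not evidence of binding. Only these exact forms were searched, so that a promoter without a match, such as that of Cxcl10 for the NF-kB-like letters, may hold other forms.

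Total counts per library lay between 5694928, in library 1 of the HDM-treated TG mice, and 11929374, and 3 counts in a library, taken as the floor, equalled 0.232 to 0.449 CPM (counts scaled by TMM over all 8 libraries to a common library size). Ddah1, the targeted gene, was at 47.7 and 34.3 CPM in PBS-treated WT, 76.9 and 53.8 in PBS-treated TG, 43.1 and 44.7 in HDM-treated WT, and 34.9 and 33.4 CPM in HDM-treated TG mice. Under HDM the libraries labelled TG thus lay below those labelled WT (log2 fold change -0.32, adjusted p = 0.637), and neither genotype comparison of Ddah1 passed the test. Xist was at 11.3 to 20.8 CPM in the 4 PBS-treated libraries and at 2048 to 3040 CPM in the 4 HDM-treated ones, while the Y-linked gene Ddx3y was at 58.7 to 69.0 CPM in the former and had 2 or 3 counts in each of the latter. HDM treatment and these levels, which mark sex, cannot be told apart in either genotype. A rise or fall with HDM below is thus a difference between HDM- and PBS-treated libraries that also differ in these levels. The 6 lung marker genes summed to 20910 to 71900 CPM in every library. In bulk lung RNA, fewer cells of a type and less RNA per cell cannot be told apart.

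A member is called here when its adjusted p-value is under 0.05 in the quasi-likelihood test of edgeR, where Benjamini-Hochberg adjustment ran across every gene that the comparison tested. Between the PBS-treated genotypes 9 of the 10 members passed the filter on low counts, and of these Cxcl2 was called lower in TG and none was called higher, where 0.375% of 14926 genes were called lower and 0.281% higher. Between the HDM-treated genotypes Cxcl3 was called higher and none lower, where 1.84% of 15191 genes were called higher and 0.599% lower. HDM treatment of WT mice gave 4 members called higher and 1 lower of 10, against 4.44% and 2.30% of 15123 genes. In TG mice 5 of 10 were called higher and none lower, against 8.43% and 5.35% of 15086 genes. The interaction, which is the genotype effect under HDM minus that under PBS, was called for 4 of the 10 members, 3 positive and 1 negative, where 1.76% of 15868 genes were called. The medians of the members' log2 fold changes in these 5 comparisons were -1.28, 0.17, 1.16, 3.10 and 1.10, while those of all genes tested lay between 0.00 and 0.03. Cxcl3 was below the floor in PBS-treated TG mice, and its bounds against the floor were -2.93 and 6.80 in the comparisons with medians of -1.28 and 3.10. Each bound lies on the same side of the median as the fitted value, so that neither median could change and neither was checked by it. Cxcl1 (7 and 1 counts in these libraries) and Cxcl2 (1 and 10 counts) were not set to a bound.

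**Figure D1:**
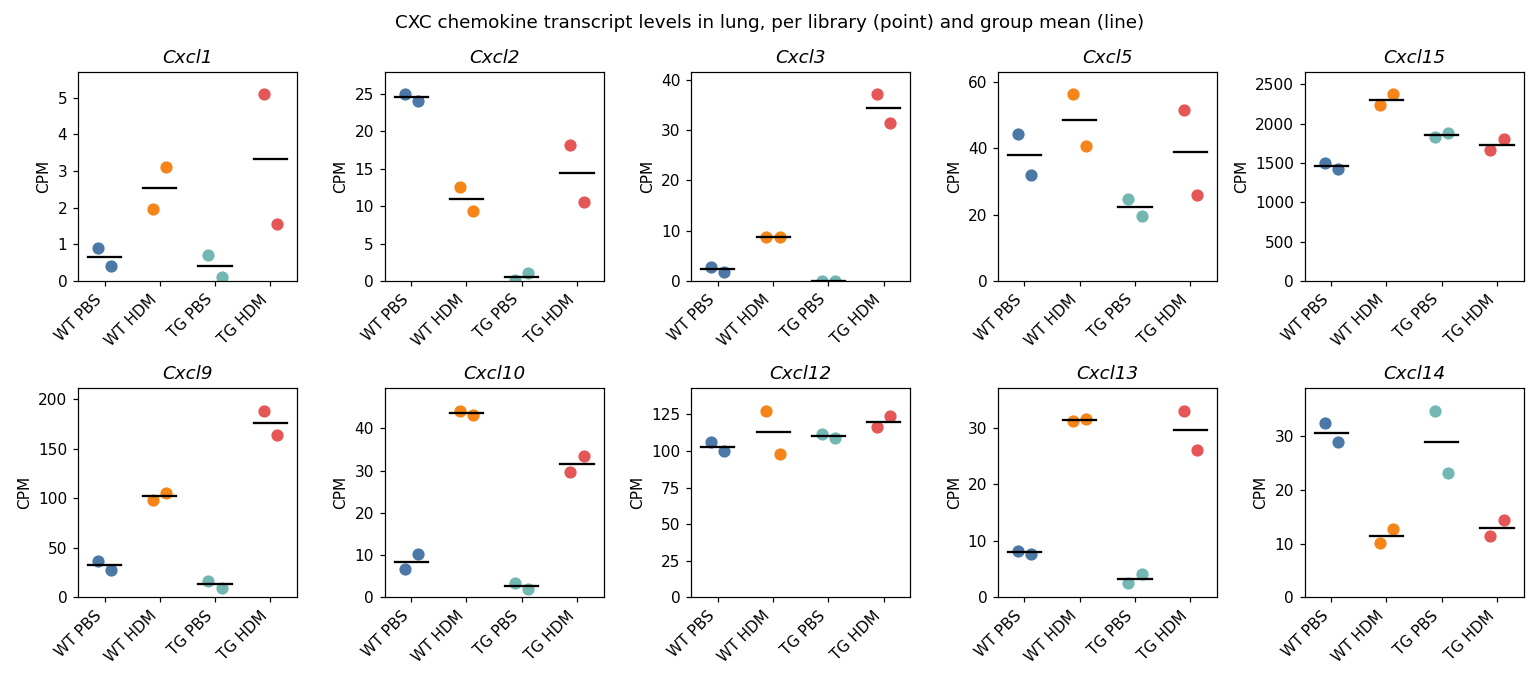
Level of each of the 10 CXC chemokines in CPM (linear axes that start at 0 and differ between panels) in the 4 groups. Points are the 2 libraries of a group and lines their mean. Cxcl2 and Cxcl3 are near 0 in both PBS-treated TG libraries, Cxcl3 reaches 37.1 and 31.5 CPM in HDM-treated TG mice, and Cxcl12 lies between 97.7 and 128 CPM throughout.

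Cxcl15 was by far the most abundant member. It made up 77.2% to 91.8% of the summed CPM of the 10 members in a library. Per kilobase of transcript, the scale on which levels of different genes are compared here, it was at 686 ± 26.0 CPM per kb in PBS-treated WT mice (SD, n = 2 libraries), followed by Cxcl12 at 32.9 ± 1.45, Cxcl5 at 24.2 ± 5.48 and Cxcl2 at 22.1 ± 0.534. The libraries of the last pair overlapped. The counts were taken over coding regions, and by coding length the order in this group changed. Cxcl14 then followed Cxcl12, ahead of Cxcl5 and Cxcl9, and Cxcl2 had rank 6 of the 10 members. The ranks given below for the TG groups were the same by either length. In PBS-treated TG mice Cxcl12 was again second, at 35.2 ± 0.711 CPM per kb, and Cxcl3 was lowest, with 0 and 1 counts. In HDM-treated TG mice Cxcl9 was second to Cxcl15, at 61.1 ± 6.00 CPM per kb, above Cxcl12 at 38.3 ± 1.65 and Cxcl3 at 33.8 ± 3.92. In HDM-treated WT mice Cxcl10 (40.0 ± 0.609), Cxcl12 (36.0 ± 6.74) and Cxcl9 (35.4 ± 1.70) followed Cxcl15 within the spread of the Cxcl12 libraries, and by coding length Cxcl12 was second. Cxcl1 had the lowest level in the other 3 groups.

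Among the neutrophil-recruiting members, Cxcl2, a ligand released early by macrophages, was lowest in the PBS-treated TG lungs. It was at 24.9 and 24.1 CPM in PBS-treated WT mice and at 0.0998 and 1.06 CPM, from 1 and 10 counts, in PBS-treated TG mice. After HDM it was at 12.5 and 9.34 CPM in WT and at 18.1 and 10.6 CPM in TG mice. The highest libraries were thus those of PBS-treated WT and the lowest those of PBS-treated TG mice, and the HDM-treated genotypes overlapped.

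Between the PBS-treated genotypes Cxcl2 was 42.5-fold lower in TG (log2 fold change -5.41, SE 0.66, adjusted p = 0.000169). This value rests on few counts in TG and was -7.78 without TG library 2 and -4.52 without TG library 1, past the threshold in each case. In TG mice Cxcl2 was 24.9-fold higher with HDM (log2 fold change 4.64, SE 0.90, adjusted p = 0.00577). The value was 7.02 without PBS-treated library 2 and 3.76, no longer past the threshold, without PBS-treated library 1. In WT mice the log2 fold change with HDM was -1.16 (SE 0.37, adjusted p = 0.0799), and DESeq2 gave -1.17 with an adjusted p of 0.0412. The interaction was 5.78 (SE 0.87, adjusted p = 0.00118), with 4.91 and 8.17 without libraries 1 and 2 of the PBS-treated TG mice.

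Cxcl3, the closest relative of Cxcl2 among the members, was highest in HDM-treated TG mice. It was at 37.1 and 31.5 CPM there, at 8.76 and 8.74 CPM in HDM-treated WT mice, and at 2.81 and 1.88 CPM in PBS-treated WT mice. In PBS-treated TG mice it had 0 and 1 counts, below the floor. No groups overlapped, and the order was PBS-treated TG, PBS-treated WT, HDM-treated WT and HDM-treated TG.

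Under HDM, Cxcl3 was 4.03-fold higher in TG than in WT mice (log2 fold change 2.01, SE 0.38, adjusted p = 0.0186). It was 1.99 and 2.02 without WT libraries 1 and 2, where the adjusted p was 0.317 and 0.205, and 1.58 with an offset for transcript length (adjusted p = 0.0948), so that the call was lost in these fits. In TG mice Cxcl3 had 1 count with PBS and 655 with HDM over both libraries (adjusted p = 2.08e-05). The ratio of these counts after scaling was 651, with a 95% exact interval for counting error alone of 117 to 25770. Between the PBS-treated genotypes 51 counts in WT stood against 1 in TG, a ratio of 44.8 (interval 7.68 to 1802), which edgeR did not call (adjusted p = 0.13). Of the alternatives only the fit of all 8 libraries called it (adjusted p = 0.00595). The others that left out no library gave adjusted p-values from 0.108, without the low-count filter, to 0.349, with the block, and DESeq2 gave 0.194. In WT mice the log2 fold change with HDM was 1.90 (SE 0.64, adjusted p = 0.103, or 0.0401 in the fit of all 8 libraries). The interaction was 7.18 (SE 1.00, adjusted p = 0.000512), with 6.29 and 9.58 without libraries 1 and 2 of the PBS-treated TG mice.

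The balance of Cxcl2 and Cxcl3 can be read within a library, where scaling plays no part. Cxcl3 made up 10.1% and 7.23% of the summed counts of both genes in PBS-treated WT mice, 41.2% and 48.3% in HDM-treated WT mice, and 67.2% and 74.8% in HDM-treated TG mice. The 95% exact binomial intervals of these groups, which cover counting error only, were 4.64% to 14.3%, 34.9% to 55.9% and 62.2% to 78.4% over both libraries and did not overlap. In PBS-treated TG mice the sums were 1 and 11 counts and set no useful limit. With 2 libraries against 2, the smallest 2-sided p that an exact permutation test can give is 0.333, so that this share is given as a description.

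**Figure D2:**
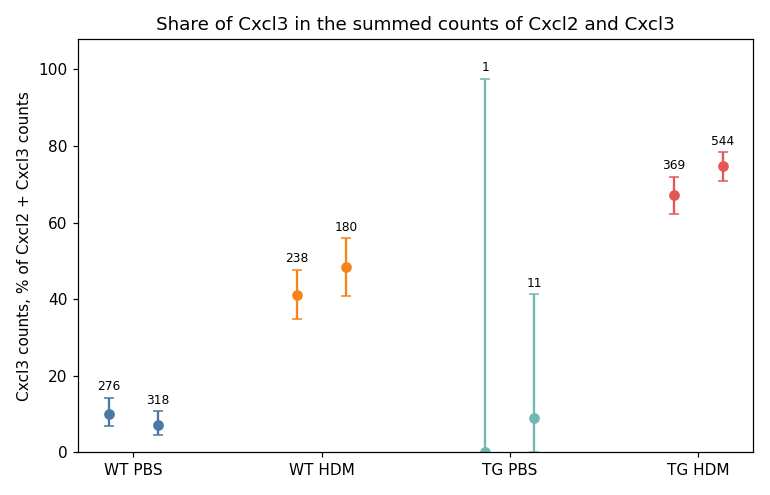
Cxcl3 counts as a percentage of the summed Cxcl2 and Cxcl3 counts in each library (points) of the 4 groups, with 95% exact binomial intervals for counting error alone (bars) and the summed count above each bar. The share lies at 7.23% to 10.1% in PBS-treated WT, 41.2% to 48.3% in HDM-treated WT and 67.2% to 74.8% in HDM-treated TG mice, while the PBS-treated TG libraries hold 1 and 11 counts.

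Cxcl1, another CXCR2 ligand, was scarce. It had 9 and 5 counts in PBS-treated WT, 7 and 1 in PBS-treated TG, 22 and 31 in HDM-treated WT, and 34 and 20 in HDM-treated TG mice. All 4 HDM-treated libraries lay above all 4 PBS-treated ones, at 1.55 to 5.09 against 0.106 to 0.904 CPM. Neither HDM comparison passed the test, with log2 fold changes of 1.94 in WT (SE 1.05, adjusted p = 0.33) and 3.02 in TG (SE 1.36, adjusted p = 0.17). At this depth a difference between genotypes was not detectable under HDM (0.42, SE 1.03, adjusted p = 0.892), and Cxcl1 did not pass the low-count filter between the PBS-treated groups.

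Cxcl5, a CXCR2 ligand made by epithelial cells of the lung, was at 44.2 and 32.0 CPM in PBS-treated WT, 24.8 and 19.7 in PBS-treated TG, 56.3 and 40.7 in HDM-treated WT, and 51.5 and 26.1 CPM in HDM-treated TG mice. The PBS-treated TG libraries were the lowest of all 8, and the other groups overlapped. None of the 5 comparisons passed the test, with adjusted p-values between 0.188 and 0.756. The log2 fold change between the PBS-treated genotypes was -0.79 (SE 0.30, adjusted p = 0.355).

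Cxcl15, the lung epithelial member, rose with HDM in WT mice. Its levels were 1498 and 1419 CPM in PBS-treated WT, 2231 and 2372 in HDM-treated WT, 1832 and 1886 in PBS-treated TG, and 1661 and 1806 CPM in HDM-treated TG mice. The groups did not overlap and the 2 TG groups were neighbours in the order, between those of WT mice. Cxcl15 was 1.58-fold higher with HDM in WT (log2 fold change 0.66, SE 0.09, adjusted p = 0.000329), and the value in TG was -0.08 (SE 0.14, adjusted p = 0.777). The genotype values were 0.34 under PBS (SE 0.09, adjusted p = 0.105) and -0.37 under HDM (SE 0.14, adjusted p = 0.208). The value under PBS passed with DESeq2 (adjusted p = 0.0401), without the low-count filter (0.0137) and with the block and length offset (0.015). In the fit of all 8 libraries the value under HDM passed (adjusted p = 0.0393) and that under PBS did not (0.29). Their difference was -0.76 (SE 0.16, adjusted p = 0.0146) and was no longer past the threshold without library 1 (-0.80) or library 2 (-0.72) of the PBS-treated WT mice, library 2 of the HDM-treated WT mice (-0.71) or library 2 of the PBS-treated TG mice (-0.74).

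Genes of skeletal muscle moved in the same order as Cxcl15 in the PBS-treated libraries and in WT mice. All 8 genes of the muscle list had at least 1 count in each group. In PBS-treated WT mice Myh2 (0 and 2 counts) and Pvalb (1 and 1 counts) lay below the floor. The summed level of the list was 41.6 and 45.4 CPM in PBS-treated WT, 193 and 212 in HDM-treated WT, 225 and 229 in PBS-treated TG, and 116 and 138 CPM in HDM-treated TG mice. Of this list 6 genes were called higher in TG under PBS and 7 higher with HDM in WT. Their part in the result for Cxcl15 was not tested. The summed level of the 6 lung markers, among them the surfactant genes, was 41180 and 48680 CPM in PBS-treated WT and 21100 and 24730 CPM in HDM-treated WT mice. Most of this sum came from Scgb1a1, a gene of club cells, which fell by 1.46 on the log2 scale (SE 0.09, adjusted p = 2.85e-07). The surfactant genes differed among themselves with HDM in WT mice, where Sftpa1 was called higher (0.61, SE 0.09, adjusted p = 0.000504), as was Cxcl15, Sftpc was called lower (-0.62, SE 0.09, adjusted p = 0.00048) and Sftpb was at -0.03 (SE 0.10, adjusted p = 0.9). Under PBS Sftpa1 was also called higher in TG (0.42, SE 0.08, adjusted p = 0.0223), and the sum was 49340 and 71900 CPM in TG mice. The part of these genes in the result for Cxcl15 was not tested.

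The interferon-induced members rose with HDM in both genotypes. Cxcl9 was at 36.9 and 28.0 CPM in PBS-treated WT, 98.8 and 106 in HDM-treated WT, 16.6 and 9.40 in PBS-treated TG, and 189 and 164 CPM in HDM-treated TG mice. No groups overlapped, and TG mice held both the lowest and the highest libraries. Cxcl9 was 3.16-fold higher with HDM in WT (log2 fold change 1.66, SE 0.22, adjusted p = 0.000268) and 13.8-fold higher in TG mice (3.79, SE 0.31, adjusted p = 1.77e-05). The difference between these responses, which is also the interaction, was 2.10 (SE 0.36, adjusted p = 0.0035) and stayed past the threshold without any 1 of the 8 libraries, at 1.76 to 2.58.

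Neither genotype comparison of Cxcl9 passed the test by itself. The log2 fold change was -1.33 under PBS (SE 0.36, adjusted p = 0.125) and 0.83 under HDM (SE 0.21, adjusted p = 0.0631). With DESeq2 both passed, at -1.32 (adjusted p = 0.0494) and 0.81 (adjusted p = 0.0109). Both also passed in edgeR without the low-count filter (adjusted p = 0.02 under PBS and 0.0131 under HDM). The fit of all 8 libraries gave a call under PBS (adjusted p = 0.0256). Neither passed in edgeR with RLE size factors (adjusted p = 0.13 under PBS and 0.076 under HDM) or with the length offset (0.138 and 0.0793). The calls thus depended on the processing. The replicate number as a block gave a call under HDM, at 0.82 (adjusted p = 0.0329), and none under PBS (adjusted p = 0.206). These numbers do not pair the libraries, so that the call with the block adds no support.

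Cxcl10, which shares the receptor CXCR3 with Cxcl9, was at 6.63 and 10.2 CPM in PBS-treated WT, 44.2 and 43.3 in HDM-treated WT, 3.39 and 2.01 in PBS-treated TG, and 29.7 and 33.5 CPM in HDM-treated TG mice. Its highest group was thus HDM-treated WT and not HDM-treated TG, and no groups overlapped. Cxcl10 was 5.17-fold higher with HDM in WT (log2 fold change 2.37, SE 0.34, adjusted p = 0.000535) and 11.8-fold higher in TG mice (3.56, SE 0.48, adjusted p = 0.000599). The interaction of 1.17 (SE 0.54, adjusted p = 0.33) and the genotype values of -1.64 under PBS (SE 0.64, adjusted p = 0.371) and -0.43 under HDM (SE 0.30, adjusted p = 0.511) did not pass the test.

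Within a library, Cxcl10 made up 30.9% and 29.0% of the summed Cxcl9 and Cxcl10 counts in HDM-treated WT mice and 13.6% and 16.9% in HDM-treated TG mice. Their 95% exact binomial intervals, 26.7% to 33.2% and 11.9% to 18.4% over both libraries, did not overlap. In PBS-treated mice the share was 15.2% and 26.7% in WT and 17.0% and 17.6% in TG, and intervals overlapped between genotypes. The intervals of the 2 PBS-treated WT libraries, 12% to 19% and 22.8% to 31%, did not overlap although both came from the same pool. Such intervals cover counting error only and did not hold the spread between these libraries, so that the shares are given as a description.

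Of the 3 homeostatic members, Cxcl13, the ligand that guides B cells into follicles, rose with HDM in both genotypes. It was at 8.24 and 7.75 CPM in PBS-treated WT, 31.3 and 31.5 in HDM-treated WT, 2.50 and 4.12 in PBS-treated TG, and 33.1 and 26.1 CPM in HDM-treated TG mice. The HDM-treated genotypes overlapped, and all their libraries lay above all PBS-treated ones. The rise was 3.92-fold in WT (log2 fold change 1.97, SE 0.35, adjusted p = 0.0034) and 9.06-fold in TG mice (3.18, SE 0.48, adjusted p = 0.00137). The interaction was 1.18 (SE 0.56, adjusted p = 0.337), and the genotype values were -1.28 under PBS (SE 0.62, adjusted p = 0.518) and -0.05 under HDM (SE 0.33, adjusted p = 0.964).

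Cxcl14, an epithelial ligand, went the other way. It was at 32.5 and 28.8 CPM in PBS-treated WT and 34.7 and 23.1 in PBS-treated TG mice, and at 10.2 and 12.8 CPM in HDM-treated WT and 11.4 and 14.4 in HDM-treated TG mice. Genotypes overlapped under either treatment, and every HDM-treated library lay below every PBS-treated one. Cxcl14 fell 2.68-fold with HDM in WT (log2 fold change -1.42, SE 0.34, adjusted p = 0.0228), a call that was lost without PBS-treated library 1 (-1.33, adjusted p = 0.131) or library 2 (-1.51, adjusted p = 0.0695). In TG mice the value was -1.14 (SE 0.40, adjusted p = 0.0786, or 0.0455 with DESeq2).

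Cxcl12, the CXCR4 ligand of stromal and endothelial cells, had nearly the same level in all groups. It was at 106 and 99.7 CPM in PBS-treated WT, 128 and 97.7 in HDM-treated WT, 112 and 109 in PBS-treated TG, and 116 and 124 CPM in HDM-treated TG mice. The spread between the HDM-treated WT libraries covered the PBS-treated ones and library 1 and 2 of the HDM-treated TG mice. Log2 fold changes in the 4 comparisons lay between 0.09 and 0.14 with SEs of 0.17 to 0.22, and the interaction was -0.01 (SE 0.28, adjusted p = 0.995).

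**Figure D3:**
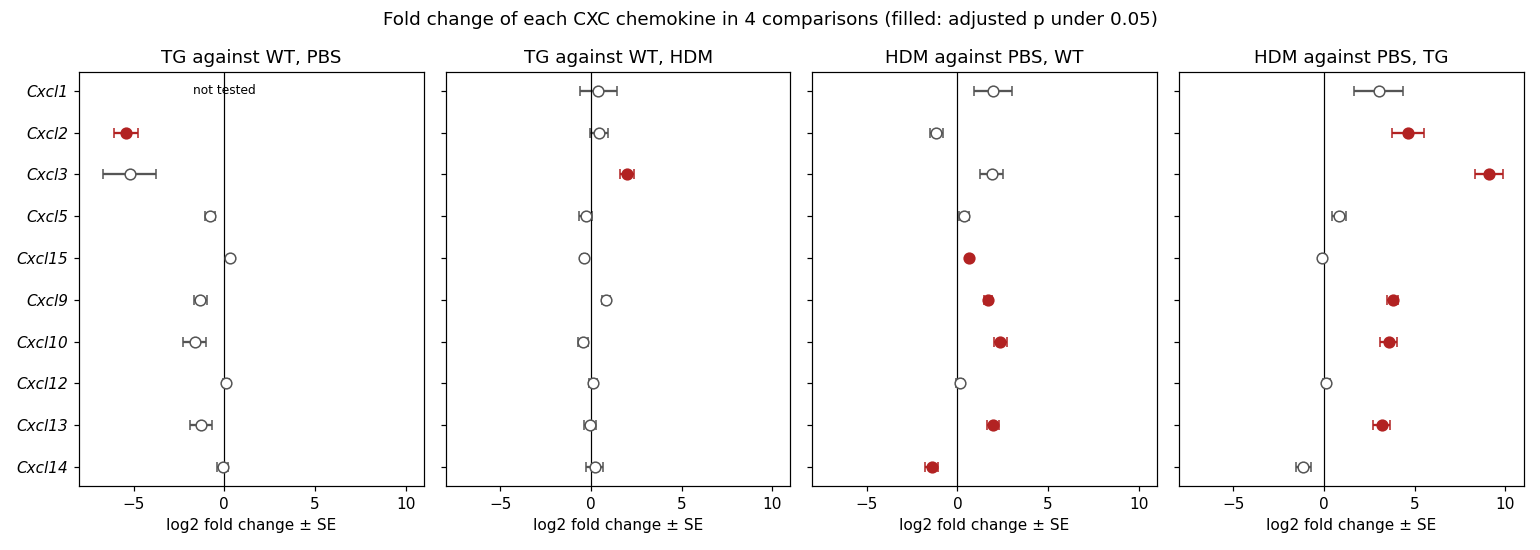
Log2 fold change (points) and its standard error (bars) of each CXC chemokine in the 4 comparisons, from edgeR's quasi-likelihood test on 2 libraries per group. Filled points have an adjusted p-value under 0.05. Cxcl9, Cxcl10 and Cxcl13 are filled in both HDM comparisons, at 1.66 to 2.37 in WT and 3.18 to 3.79 in TG mice, and Cxcl2 (-5.41) is the filled point under PBS.

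The genotype effect thus differed between treatments for 4 members, and the other 6 did not pass that test. The order of groups also differed among members. PBS-treated TG mice had the lowest mean of Cxcl1, Cxcl2, Cxcl3, Cxcl5, Cxcl9, Cxcl10 and Cxcl13, while for Cxcl12 and Cxcl15 it was PBS-treated WT and for Cxcl14 HDM-treated WT. The highest mean was in HDM-treated TG mice for Cxcl1, Cxcl3, Cxcl9 and Cxcl12, in HDM-treated WT mice for Cxcl5, Cxcl10, Cxcl13 and Cxcl15, and in PBS-treated WT mice for Cxcl2 and Cxcl14. For Cxcl1, Cxcl5, Cxcl12, Cxcl13 and Cxcl14 the group with the highest mean overlapped with the next.

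The receptors of the members were described with the same fits. The list holds 8 receptors, of which 7 passed the low-count filter. None was called between genotypes under PBS or HDM. With HDM in WT mice Cxcr3, the receptor of Cxcl9 and Cxcl10 on T cells, rose from 0.738 to 11.2 CPM on average (log2 fold change 3.92, SE 0.70, adjusted p = 0.00327). Cxcr4, the receptor of Cxcl12, rose by 1.26 in WT (SE 0.35, adjusted p = 0.0492) and by 1.68 in TG mice (SE 0.35, adjusted p = 0.00884) on the log2 scale. Cxcr2, the receptor of most neutrophil-recruiting ligands, fell in WT (log2 fold change -0.61, SE 0.17, adjusted p = 0.0475), from 140 to 92.2 CPM. Cxcr2 was at 90.8 CPM in PBS-treated TG and 97.6 CPM in HDM-treated TG mice, and its value between PBS-treated genotypes was -0.64 (SE 0.17, adjusted p = 0.119). Cxcr3 in TG mice (2.18, SE 0.75, adjusted p = 0.0749) and the Cxcl13 receptor Cxcr5 in WT (1.29, SE 0.41, adjusted p = 0.0867) and TG mice (1.13, SE 0.53, adjusted p = 0.188) had positive values that did not pass. Cxcr6 and the scavenging receptor Ackr3 were called in no comparison, with adjusted p-values of 0.256 to 0.969. Ackr1, which binds chemokines without signalling, had 47 counts in PBS-treated WT and 3 in PBS-treated TG mice over both libraries, a ratio of 13.8 (95% exact interval for counting error 4.43 to 69.1) that was not called (adjusted p = 0.312). It had 69 counts in HDM-treated TG mice, a ratio to PBS of 22.9 (interval 7.51 to 114, adjusted p = 0.0687), and its interaction was not called (adjusted p = 0.268). Cxcr1 did not pass the low-count filter.

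Of 5 other CXC ligands, Cxcl16, the ligand of CXCR6, rose with HDM by 0.94 in WT (SE 0.22, adjusted p = 0.0175) and by 1.25 in TG mice (SE 0.25, adjusted p = 0.00706) on the log2 scale. Ppbp, which platelets carry, fell by 2.10 in WT (SE 0.24, adjusted p = 7.49e-05) and by 2.76 in TG mice (SE 0.30, adjusted p = 0.000116). The other 3 (Cxcl11, Cxcl17 and Pf4) were called in no comparison.

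Genes that induce or restrain the neutrophil-recruiting ligands were counted as a list of 10. Under PBS 8 of them passed the filter, and 7 of these had negative values. Il1b, an inducer of CXCR2 ligands, was called lower in TG (log2 fold change -2.91, SE 0.35, adjusted p = 0.000149), at 6.99 and 4.76 CPM against 44.4 and 43.3 CPM in WT. With HDM in TG mice Il1b rose by 1.76 (SE 0.48, adjusted p = 0.032) and Il1a by 2.69 (SE 0.66, adjusted p = 0.0198) on the log2 scale. The interaction was called for Il1b (2.65, SE 0.50, adjusted p = 0.00762). Il17a had 27 and 11 counts in PBS-treated WT mice, 0 and 5 in HDM-treated TG mice and none in the other groups. No gene of this list was called between the HDM-treated genotypes, where Cxcl3 was higher, or with HDM in WT mice.

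The 6 genes of the interferon-gamma response list had a summed level of 301 and 315 CPM in PBS-treated WT, 538 and 513 in HDM-treated WT, 211 and 202 in PBS-treated TG, and 416 and 450 CPM in HDM-treated TG mice. With HDM, 3 of the 5 tested in WT and 3 of the 6 tested in TG mice were called higher and none lower. Irf1 was among those not called (0.06, SE 0.25, adjusted p = 0.926 in WT and 0.44, SE 0.29, adjusted p = 0.363 in TG mice). On the log2 scale Gbp2, an interferon-inducible GTPase, rose by 0.85 in WT (SE 0.22, adjusted p = 0.0313) and by 1.31 in TG mice (SE 0.28, adjusted p = 0.00862), Igtp in WT by 1.23 (SE 0.21, adjusted p = 0.00242) and Ciita in TG mice by 1.42 (SE 0.34, adjusted p = 0.0182). Between the HDM-treated genotypes the sum was lower in TG, as for Cxcl10, while Cxcl9 was higher in TG. The gene of interferon-gamma itself, Ifng, had 2 counts in HDM-treated WT and 48 in HDM-treated TG mice over both libraries. Its ratio of 25.9 had a counting interval of 6.79 to 220, and edgeR did not call it (adjusted p = 0.229). The part of these genes in the results for Cxcl9 and Cxcl10 was not tested.

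The neutrophil list, of which 8 of 9 genes were in the table, summed to 448 and 427 CPM in PBS-treated WT, 205 and 218 in HDM-treated WT, 184 and 209 in PBS-treated TG, and 222 and 235 CPM in HDM-treated TG mice. PBS-treated WT mice, with the highest Cxcl2, thus also had the highest sum, and the sums of the other groups lay close together. Under PBS 3 of its genes were called lower in TG, namely Ngp, S100a8 (log2 fold change -2.28, SE 0.32, adjusted p = 0.000742) and S100a9 (-3.77, SE 0.34, adjusted p = 3.86e-06). The granule gene Camp was at 0 in HDM-treated WT and PBS-treated TG mice and Ngp in HDM-treated TG mice. The interaction was called for S100a8 (3.48, SE 0.54, adjusted p = 0.00146) and S100a9 (5.02, SE 0.61, adjusted p = 9e-05), as for Cxcl2. With HDM in TG mice S100a9 alone of the 6 tested was called higher (2.66, SE 0.51, adjusted p = 0.00504) and none lower. Its mean was 4.83 CPM in PBS-treated and 30.2 CPM in HDM-treated TG mice. With HDM in WT mice 4 genes of the list were called lower and none higher. Between the HDM-treated genotypes, where Cxcl3 was higher in TG, none of the 6 neutrophil genes tested was called.

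The 6 B cell markers summed to 117 and 150 CPM in PBS-treated WT, 422 and 373 in HDM-treated WT, 70.6 and 60.5 in PBS-treated TG, and 304 and 471 CPM in HDM-treated TG mice. As for Cxcl13, all HDM-treated libraries lay above all PBS-treated ones, and 5 of the 6 genes were called higher with HDM in each genotype. The 3 T cell markers summed to 19.0 to 29.1 CPM in the PBS-treated and 38.4 to 76.5 CPM in the HDM-treated libraries. Thymocyte genes were at 77.7 and 80.2 CPM in PBS-treated WT and at 17.6 to 28.1 CPM in all other libraries, with Rag1 and Dntt at 0 in HDM-treated WT and Dntt at 0 in PBS-treated TG mice. The 6 alveolar macrophage markers summed to 156 to 179 CPM in the PBS-treated and 235 to 296 CPM in the HDM-treated libraries. In WT mice Ear2 alone of these was called higher with HDM (log2 fold change 1.84, SE 0.18, adjusted p = 1.42e-05), while 4 of the 6 had negative values and the median was -0.50. In TG mice Fabp4 alone was called higher (3.07, SE 0.51, adjusted p = 0.00222) and 3 of the 6 were negative. Fat tissue genes ranged from 12.4 to 60.2 CPM, and red cell genes from 3738 to 6842 CPM under PBS and from 1446 to 2597 CPM under HDM. The part of these cell types in the members' results was not tested.

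**Figure D4:**
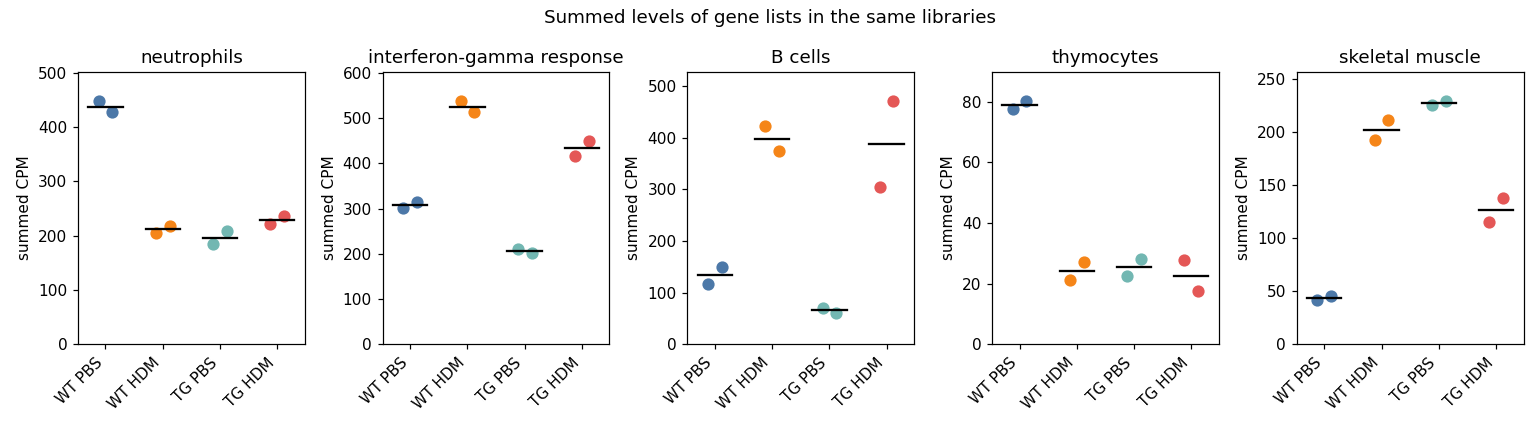
Summed CPM (linear axes from 0) of gene lists in each library (points) with group means (lines). The neutrophil and thymocyte sums are highest in PBS-treated WT mice (448 and 427, and 77.7 and 80.2 CPM), the interferon-gamma response and B cell sums are higher in all HDM-treated than in all PBS-treated libraries, and the skeletal muscle sum is lowest in PBS-treated WT mice (41.6 and 45.4 CPM).

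For each member with a mean of at least 1 CPM, the 3 genes whose log2 CPM was most like it over the 8 libraries were found by Pearson's r. The 8 libraries form 4 pairs from shared pools, so that r is a description. Cxcl2 was most like Il1rn, the IL-1 receptor antagonist (0.966), and Ccl3, another chemokine (0.963). Cxcl3 was most like Ptprc, which encodes the leukocyte antigen CD45 (0.997), and Tlr13 (0.983). Cxcl9 was most like AA467197 (0.994) and Rrm2 (0.993), and Cxcl10 like Fcgr2b (0.996) and the interferon-inducible genes Ifi47 (0.995) and Gbp3 (0.994). Cxcl13 was most like Iigp1, an interferon-inducible GTPase (0.996), Rac2 (0.994) and Irf4 (0.993). For Cxcl15 the genes were M1ap (0.978), the muscle actin gene Acta1 (0.974) and Hadha (0.962), for Cxcl5 Nrg4 (0.955) came first, for Cxcl12 Sucla2 (0.967), for Cxcl14 Zbtb10 (0.981) and for Cxcl1 Vmn1r65 (0.981).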

How the data were processed

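Lung RNA of 8 libraries, 2 per group from one pool of 4 mice, was analyzed. The authors amplified the RNA, sequenced it in single reads of 50 cycles and used TopHat with mm10 for alignment. They deposited raw read counts per gene, taken over coding regions, and all columns were used. The submitters' processing notes also name CASAVA 1.8 and DESeq, and the version of TopHat is not given in the sources used here. Names and positions came from RefSeq GRCm38.p6 (23372 genes) and lengths from GENCODE M21 (21145 genes). The rRNA gene Rn45s held 8.58% to 21.8% of a library.

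Each comparison was tested with edgeR 4.0.16 (R 4.3.3; glmQLFit, TMM, filterByExpr at a minimum count of 10) on the 4 libraries it compares and the interaction on all 8, with a threshold of 0.05 on the Benjamini-Hochberg adjusted p. SE is the size of the log2 fold change divided by the square root of F. CPM were computed from the deposited counts with all 8 libraries scaled together, with a prior count of 2 for log2 CPM. The smallest library had about 0.477 of the counts of the largest and gives the least precise values, and intervals and floors cover counting error only. The scripts were tested on simulated data. The alternatives were RLE size factors, DESeq2 1.42.0, no filter, the replicate number as a block, an offset for transcript length (loess, span 0.5), both together, library sizes without Rn45s and haemoglobin genes, all 8 libraries in 1 fit, and each library left out.

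Named were all members, their receptors, up to 4 called genes of each list, Ddah1, Xist, Ddx3y and the 3 genes most like each member. Ifng, Il17a, Irf1, Scgb1a1, Sftpa1, Sftpb, Sftpc, Ear2, Fabp4, S100a8, S100a9, Camp, Ngp and genes at 0 were named after their values were seen. A called gene of 1 list is not reported here by name. Members and lists were chosen with earlier results of these data known. Within each group, the spread between libraries exceeded sampling noise (mean chi-square per gene 13.5 to 29.5) and libraries were kept apart.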

Additional observations from a re-analysis of the deposited data

Results flagged for a closer look

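For 4 members the genotype effect was not the same under HDM as under PBS by the interaction test of edgeR on all 8 libraries. Cxcl2 differed by 5.78 on the log2 scale (adjusted p = 0.00118), Cxcl3 by 7.18 (adjusted p = 0.000512) and Cxcl9 by 2.10 (adjusted p = 0.0035), each with a higher TG level relative to WT under HDM than under PBS. Cxcl15 differed by -0.76 (adjusted p = 0.0146), in the opposite direction. No group had enough libraries for a test of single libraries that stand apart.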

How the results depend on the processing

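The number of genes called between PBS-treated genotypes (98) was 222 with DESeq2, 306 without the low-count filter, 45 with the replicate number as a block and 169 with the block and the length offset. The number of members called (1) was then 3, 3, 1 and 2, and 3 with all 8 libraries in 1 fit. Between HDM-treated genotypes the 370 genes became 909 with DESeq2, 1055 without the filter, 625 with the block, 163 with the length offset and 771 with all 8 libraries, and the single member called became 2, 2, 2, 0 and 2. The share of higher calls there was 75.4%, and 63.2% with the length offset, 63.8% with DESeq2, 57.1% with all 8 libraries and 33.3% of the 6 calls without WT library 1. The interaction's 279 genes became 688 with DESeq2 and 675 without the filter, and the 1020 genes for HDM in WT became 1588 without the filter. The length offset moved the share of higher calls in the interaction from 59.9% to 50.3%.

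Each library left out in turn gave 75 to 432 genes and 1 to 3 members under PBS, 6 (without WT library 1) to 1595 genes (without TG library 2) and 0 to 3 members under HDM, 652 to 1661 genes and 4 to 6 members for HDM in WT, 277 to 2676 genes and 4 to 6 members for HDM in TG, and 138 to 721 genes and 3 to 4 members for the interaction. Members that were not called changed sign in such fits. Under HDM these were Cxcl1 (-0.69 to 1.05), Cxcl2 (-0.02 to 0.78), Cxcl5 (-0.87 to 0.14), Cxcl12 (-0.04 to 0.31) and Cxcl13 (-0.25 to 0.13), under PBS Cxcl14 (-0.40 to 0.18), and for HDM in WT Cxcl12 (-0.08 to 0.30). In the interaction they were Cxcl1 (-0.04 to 2.87), Cxcl5 (-0.12 to 0.86), Cxcl12 (-0.18 to 0.19) and Cxcl14 (-0.01 to 0.58). With the length offset Cxcl1 was at -0.01 under HDM and Cxcl12 at 0.06 in the interaction, and at -0.24 and 0.07 with the block as well. The cause was not tested. Of the other values outside the fits that leave out a library, 359 kept their direction and side of the threshold.

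Libraries with the same number did not deviate together (r between -0.0214 and 0.0317 over 15868 genes), so that the numbers do not pair them. The few counts of Cxcl1, Cxcl2 and Cxcl3 in PBS-treated TG mice limit what can be said of their size, and a fit that leaves 1 library in a group assumes that it varies like the others. No variation between mice was measured.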
